A study of Homo sapiens with 6 samples.

Results

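Integrins and laminins hold an epithelial cell to the sheet of matrix beneath it. The 33 genes described here encode 16 integrin alpha chains, 8 integrin beta chains and 9 laminin chains, chosen by gene family from the 22984 genes listed on the sense strand. A gene was called transcribed when it had 10 or more counts in each of the 6 libraries, and 24 of the 33 were, among 13335 genes of the whole table. These 24 were 12 alpha chains, 4 beta chains and 8 laminin chains.

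The libraries were made by Bru-seq from HCT116 cells, a long-established line grown from a human colorectal carcinoma. In this method cells take up bromouridine, here at 2 mM for 30 min, and the RNA made during that time is captured and sequenced. A pair of cultures received the vehicle DMSO (0.01%, 4 h, n = 2), 1 culture received siGSTO1, an siRNA against GSTO1 (10 nM, 24 h), 1 received the GSTO1 inhibitor C1-27 for 4 h and 1 for 24 h (both 1 μM), and 1 received the inactive analogue C1-14 (10 μM, 4 h). Every treatment was thus a single culture without a replicate of its own. A non-targeting siRNA and a 24 h DMSO control were not analysed here, so for both 24 h treatments the agent and the time in culture cannot be told apart. For siGSTO1, the transfection cannot be told apart from the siRNA either.

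An integrin is a pair of 1 alpha and 1 beta chain that spans the membrane, binds matrix outside the cell and links to actin or keratin filaments inside. The alpha chain largely sets the ligand, and the groups used below are the receptors of collagen, of laminin and of RGD-containing matrix such as fibronectin, the receptors found mainly on leukocytes, and ITGA4 and ITGA9. A laminin is a cross of 1 alpha, 1 beta and 1 gamma chain and is the main adhesive protein of basement membranes. In intestinal epithelium, laminins and their integrin receptors anchor the cells at their basal side.

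Levels are given as RPKM, the reads per kilobase of gene and scaled to the mapped reads of the library, over exons and introns. Depth was 18112861 and 32906297 sense counts for DMSO cultures 1 and 2, 20214413 for siGSTO1, and 27364324 to 36841146 for the other 3. Of 7 epithelial markers, 6 were transcribed, and VIL1 had 0 to 3 counts. Of 3 leukocyte markers, CD3E was at 0 in every library and PTPRC and CD14 had 0 to 4 counts. GSTO1, the target of the siRNA, had 3.51 and 3.72 RPKM in DMSO and 2.70 RPKM in the library labelled siGSTO1, against 3.78 to 4.21 RPKM in the 3 compound cultures. Its nascent RNA was lowest with siGSTO1, but the difference from DMSO did not pass the test (log2 fold change −0.54, edgeR adjusted p = 0.314).

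Changes were tested with edgeR on 14428 genes, 25 of them integrins or laminins, with Benjamini-Hochberg adjustment over all of these genes. The spread in this test came from the DMSO pair alone. The test assumes that each single treated culture would vary like the DMSO pair. Of the 4 comparisons with DMSO, only that of siGSTO1 had genes of these families past the adjusted threshold in edgeR, with ITGB5, ITGB8 and LAMB3 lower and LAMA3 higher. The windows below are the 250 bases before the start of transcription of the 3 genes that were lower, in RefSeq on GRCh38.p14, read 5′ to 3′ on the strand of the gene. They are shown because these genes moved in the same direction. Capitals mark the GC box GGGCGG on either strand, the letters bound by SP1-type factors.
ITGB5, chr3:124887366-124887615, minus strand: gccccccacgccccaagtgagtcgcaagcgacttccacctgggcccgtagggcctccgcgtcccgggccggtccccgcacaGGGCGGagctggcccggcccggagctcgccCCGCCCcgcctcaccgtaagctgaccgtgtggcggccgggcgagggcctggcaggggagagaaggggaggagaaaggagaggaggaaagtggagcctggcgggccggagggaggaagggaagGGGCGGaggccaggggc
ITGB8, chr7:20330650-20330899, plus strand: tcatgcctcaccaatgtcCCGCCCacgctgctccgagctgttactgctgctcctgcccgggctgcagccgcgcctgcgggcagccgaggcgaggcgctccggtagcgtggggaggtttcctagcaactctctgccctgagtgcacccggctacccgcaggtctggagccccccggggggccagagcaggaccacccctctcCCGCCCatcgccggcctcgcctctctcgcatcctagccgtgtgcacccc
LAMB3, chr1:209652426-209652675, minus strand: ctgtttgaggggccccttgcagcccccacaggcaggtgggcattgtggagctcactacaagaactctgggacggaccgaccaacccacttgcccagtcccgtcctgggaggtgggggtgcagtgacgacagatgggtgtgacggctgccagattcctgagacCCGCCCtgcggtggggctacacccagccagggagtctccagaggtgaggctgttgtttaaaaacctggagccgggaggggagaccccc
The GC box was present 3 times before ITGB5, 2 times before ITGB8 and 1 time before LAMB3. It was present in 42.6% of 35116 RefSeq windows of this length and before 13 of the 18 transcribed family members that matched a window. AP-1 letters (TGANTCA) and TEAD letters (GGAATG) were searched on both strands as well and were absent from these 3 windows. RefSeq lists 3 starts each for ITGB5 and LAMB3, and the windows shown belong to the start that best matches the gene span in the files. The window of another LAMB3 start (chr1:209651375-209651624) holds 1 AP-1 match. AP-1 and TEAD letters were present in 6.57% and 11.9% of all windows, and before 1 and 3 of the 18. The 1 with AP-1 letters was LAMA3, with 2 matches, counted here although its start fits the gene in the files poorly. Of all 33 genes, 23 matched a window. For LAMA3, the start listed in RefSeq lies well inside the gene as the deposited files define it, with gene spans that differ by 183421 bases, and its window is not printed.

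In DMSO, levels ranged widely within each ligand group. ITGB1, the beta chain shared by most collagen and laminin receptors, had the highest level, with 3.93 and 4.64 RPKM in DMSO cultures 1 and 2. ITGA6, a laminin receptor chain, followed with 2.17 and 2.35 RPKM. LAMC1, the gamma chain found in most laminins, had 1.31 and 1.56 RPKM, and ITGA3, another laminin receptor chain, had 1.56 and 1.29 RPKM. These last 2 genes could not be ordered, since their DMSO values overlapped.

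ITGA2, the main collagen receptor chain of epithelia, had 0.893 and 1.36 RPKM in DMSO and overlapped with both. ITGB5, a partner of the alpha V chain, had 0.930 and 1.23 RPKM, and ITGAV itself had 0.674 and 0.810 RPKM. The next 6 genes by mean DMSO level were LAMB3 with 0.611 ± 0.147 RPKM, LAMB1 with 0.549 ± 0.150, LAMA5 with 0.491 ± 0.0318, ITGA5 with 0.474 ± 0.0477, ITGB4 with 0.470 ± 0.0411 and ITGB8 with 0.430 ± 0.408 (mean ± SD, n = 2). Neighbours in this order overlapped between the DMSO cultures. The other 11 transcribed genes lay between 0.0136 RPKM for ITGA9 and 0.194 RPKM for ITGAE.

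**Figure D1:**
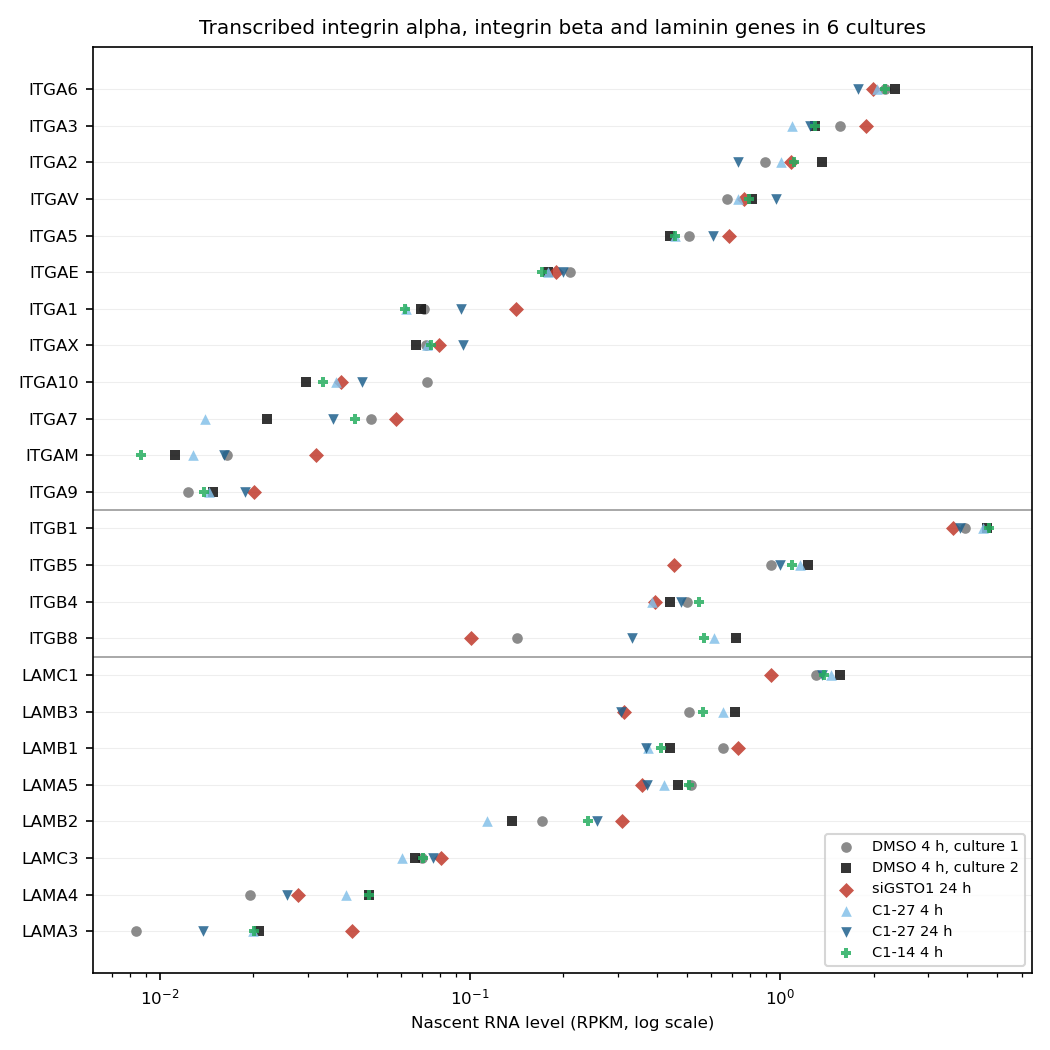
Nascent RNA level in RPKM (log axis) of the 24 transcribed genes, in 3 blocks for integrin alpha, integrin beta and laminin chains, with 1 symbol per culture. ITGB1 lies highest in every culture, and ITGB8 spans the widest range among the genes above 0.4 RPKM in DMSO, from 0.101 with siGSTO1 to 0.718 in DMSO culture 2.

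The 9 genes that were not transcribed by this rule were ITGA4, ITGA8, ITGA11, ITGAL, ITGB2, ITGB3, ITGB6, ITGB7 and LAMA1. ITGB2, the beta chain of leukocyte integrins, had 2 to 5 counts per library, and ITGB7, another leukocyte chain, had 4 to 15. ITGB3 and ITGB6, both partners of the alpha V chain, had 1 to 15 and 1 to 8 counts. ITGB5 and ITGB8 were therefore the 2 alpha V partners, apart from ITGB1, with more than a few reads.

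ITGB3 had 1 and 5 counts in DMSO, 15 with siGSTO1, 6 and 9 with C1-27 at 4 h and 24 h, and 2 with C1-14. The siGSTO1 count was 2.24 to 19.2 times the pooled DMSO count after scaling to depth (exact 95% interval, counting error only). ITGB3 was below the count filter of the test, so the difference has no p-value. ITGAL, of the leukocyte group, had 6 to 25 counts and was the only gene of the 9 that entered the test. Among the 3 transcribed leukocyte alpha chains, ITGAE had 0.171 to 0.209 RPKM, ITGAX 0.0670 to 0.0946 RPKM and ITGAM 0.00870 to 0.0319 RPKM. Their usual partners ITGB2 and ITGB7 were near 0, as were the leukocyte markers.

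Among the 8 beta chains, ITGB1 made up 65.9% to 78.8% of the summed RPKM. ITGB5 held 15.7% to 17.7% in 5 cultures and 9.89% with siGSTO1. ITGB4, the hemidesmosome chain that pairs only with ITGA6, held 5.78% to 9.05%. ITGB8 held 2.56% in DMSO culture 1, 10.2% in DMSO culture 2, 2.20% with siGSTO1, 9.14% and 5.88% with C1-27 at 4 h and 24 h, and 8.19% with C1-14. The ITGB5 share thus stood apart with siGSTO1, whereas the ITGB8 share was low with siGSTO1 and in 1 of the DMSO cultures.

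**Figure D2:**
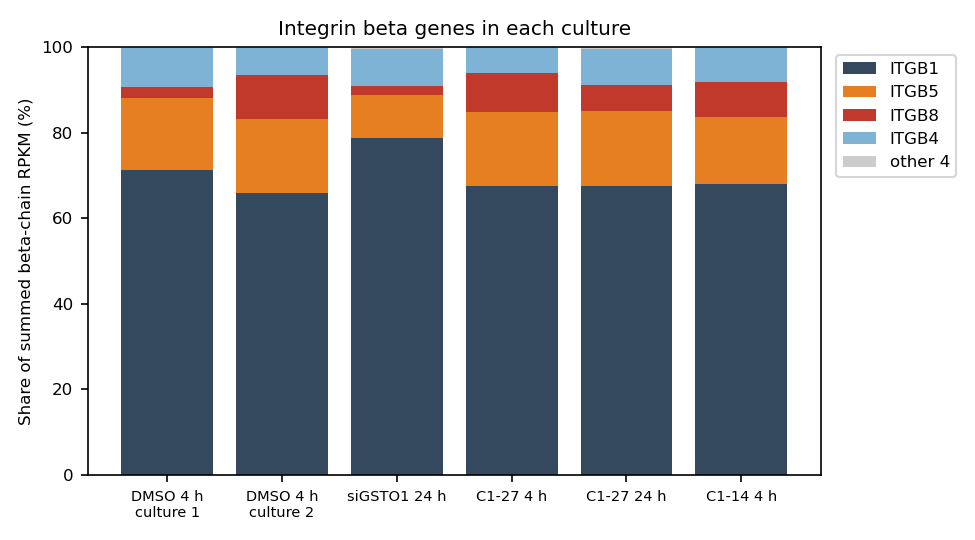
Share of each integrin beta gene in the summed beta-chain RPKM of a culture, in percent, with 1 stacked bar per culture. The ITGB5 block is 16.9% and 17.4% in DMSO and 9.89% with siGSTO1, and the ITGB8 block differs between the DMSO bars (2.56% and 10.2%).

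Among the laminin alpha chains analysed here, LAMA5, the alpha chain of most adult epithelial basement membranes, made up 83.6% to 94.8% of the summed RPKM. LAMC1 made up 92.0% to 96.0% of the 2 gamma chains. The beta chains were more even. LAMB3 held 38.1% and 55.2% of the summed beta-chain RPKM in DMSO, 23.2% with siGSTO1, 57.3% and 32.9% with C1-27 at 4 h and 24 h, and 46.3% with C1-14. LAMB3 thus had its lowest shares in the 24 h cultures, with LAMB1 at 53.9% in siGSTO1 and 39.7% in C1-27.

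The first comparison set the culture given siGSTO1, the siRNA against the enzyme the study targets, beside DMSO. With siGSTO1, 3 of 25 genes were lower than in DMSO at an adjusted p under 0.05, against 1.21% of all genes tested, and 1 of 25 was higher, against 3.69%. The remaining 21 did not pass the test. At an unadjusted p under 0.05, 7 of 25 differed in either direction (28%), against 15.2% of all genes. The median log2 fold change was −0.08 over these 25 genes and 0.02 over all genes, with 12 positive and 13 negative. The 4 genes that passed were thus split over both directions, with the middle of the families near that of all genes.

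**Figure D3:**
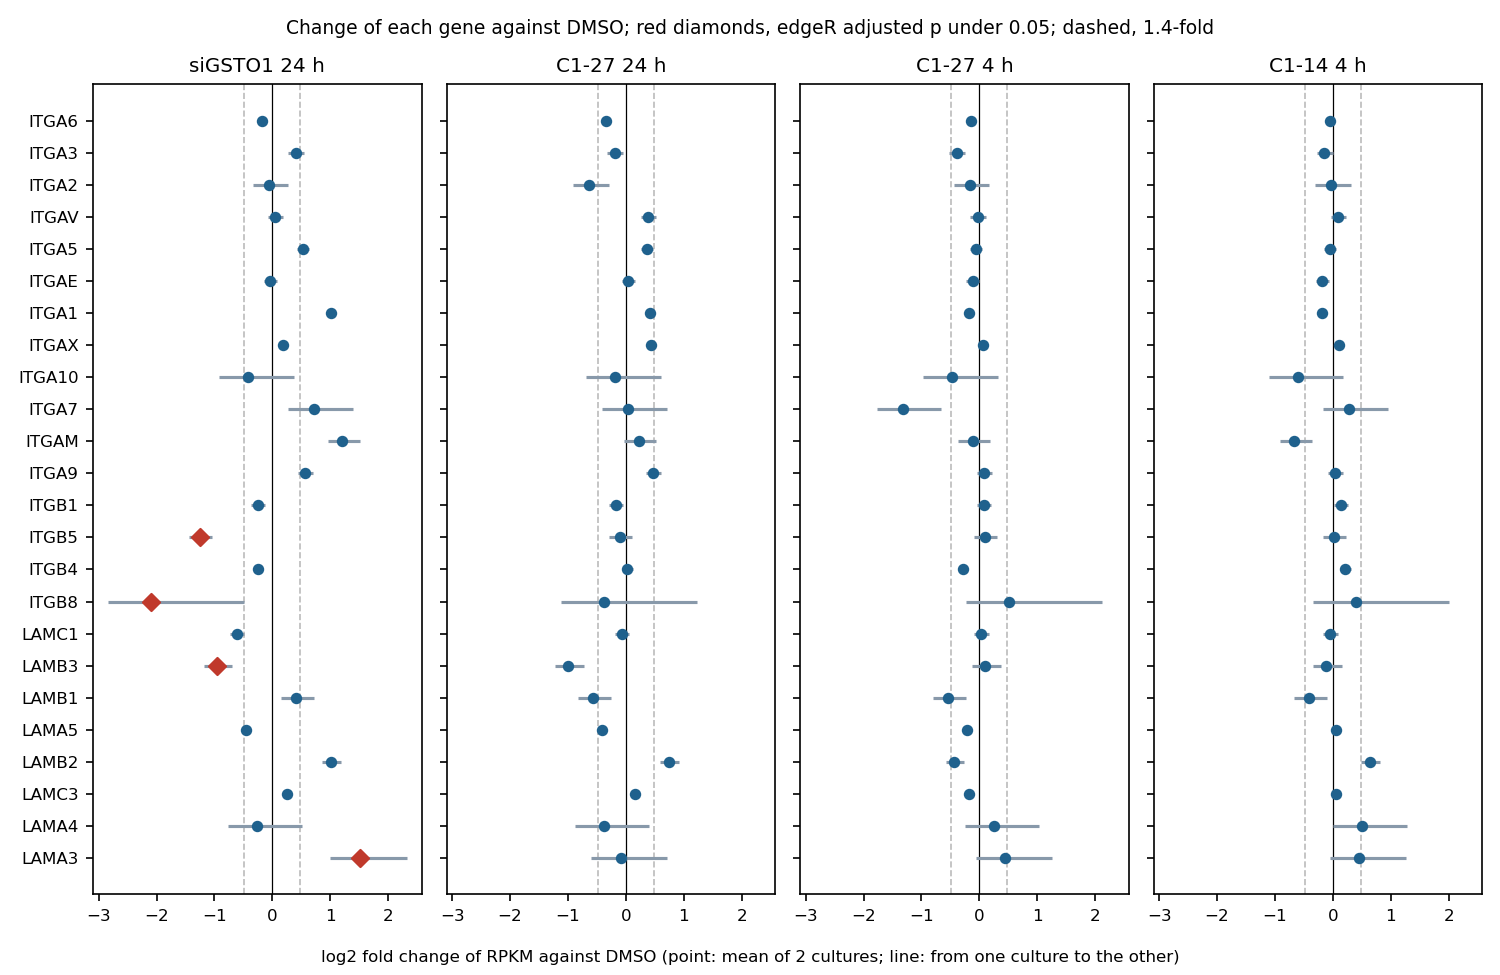
Log2 fold change of RPKM against DMSO for the 24 transcribed genes in the 4 treated cultures. Points use the mean of both DMSO cultures, lines run from the value against one DMSO culture to the value against the other, dashed lines mark 1.4-fold, and red diamonds mark an edgeR adjusted p under 0.05. The 4 diamonds lie in the siGSTO1 panel (ITGB5, ITGB8, LAMB3 and LAMA3), and the longest line belongs to ITGB8, whose DMSO cultures differ 5.08-fold.

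ITGB5 (hg19 chromosome 3, 124481795 to 124606144, minus strand) encodes a partner of the alpha V chain in a receptor for vitronectin. It had 0.930 and 1.23 RPKM in DMSO, 0.453 with siGSTO1, 1.16 and 1.00 with C1-27 at 4 h and 24 h, and 1.09 with C1-14. The siGSTO1 culture lay below all the others, which overlapped with the DMSO range. The fold change was 0.420, and 0.487 and 0.369 against each DMSO culture alone. The edgeR log2 fold change was −1.37 (SE 0.265, adjusted p = 3.59e-05), and DESeq2 also called it (adjusted p = 0.00126).

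ITGB8 (hg19 chromosome 7, 20370725 to 20455382, plus strand) encodes an alpha V partner known for releasing active TGF-beta from its latent complex. It had 0.141 and 0.718 RPKM in DMSO, 0.101 with siGSTO1, 0.611 and 0.332 with C1-27 at 4 h and 24 h, and 0.568 with C1-14. The siGSTO1 value was the lowest, but close to that of DMSO culture 1. The edgeR log2 fold change was −2.25 (SE 0.323, adjusted p = 2.03e-09), and DESeq2 did not call it (adjusted p = 0.711). The fold was 0.713 against DMSO culture 1 and 0.140 against culture 2.

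The difference between the DMSO cultures at ITGB8 was 5.08-fold. Only 9 of 13155 genes, ITGB8 included, differed as far or farther between them. The edgeR fit took the spread of each gene from the trend over all genes, so this difference did not widen the error of ITGB8. The 2 cultures with the lowest ITGB8 level, siGSTO1 and DMSO culture 1, were also the 2 with the fewest sense counts (20214413 and 18112861), and the part of depth in this was not tested. The labels do not say whether these 2 cultures were handled together, and that was not tested either.

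LAMB3 (hg19 chromosome 1, 209788218 to 209825820, minus strand) encodes the beta chain of the laminin that anchors hemidesmosomes. It had 0.507 and 0.714 RPKM in DMSO, 0.314 with siGSTO1, 0.655 and 0.307 with C1-27 at 4 h and 24 h, and 0.564 with C1-14. Both 24 h cultures lay below every 4 h culture. With siGSTO1 the fold change was 0.513 and the edgeR log2 fold change −1.09 (SE 0.341, adjusted p = 0.0327), and DESeq2 did not call it (adjusted p = 0.145).

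LAMA3 (hg19 chromosome 18, 21269562 to 21535029, plus strand) encodes the alpha chain that joins LAMB3 in the same laminin. It was weakly transcribed, with 0.00838 and 0.0209 RPKM in DMSO, 0.0417 with siGSTO1, 0.0200 and 0.0138 with C1-27 at 4 h and 24 h, and 0.0201 with C1-14. These levels rested on 52 and 226 counts in DMSO and 291 with siGSTO1. The siGSTO1 culture lay above all the others. Its fold change was 2.85 and the edgeR log2 fold change 1.31 (SE 0.429, adjusted p = 0.0482), and DESeq2 did not call it (adjusted p = 0.419). Culture 2 of the DMSO pair had 2.49 times the level of culture 1 at this gene. LAMB3 and LAMA3, partners in 1 protein, thus differed from DMSO in opposite directions by edgeR, and DESeq2 called neither. The LAMA3 counts cover a span of 265468 bases in the files, against 82047 from the start listed in RefSeq. They therefore cannot be assigned to a particular LAMA3 transcript, and which one joins LAMB3 here was not tested.

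**Figure D4:**
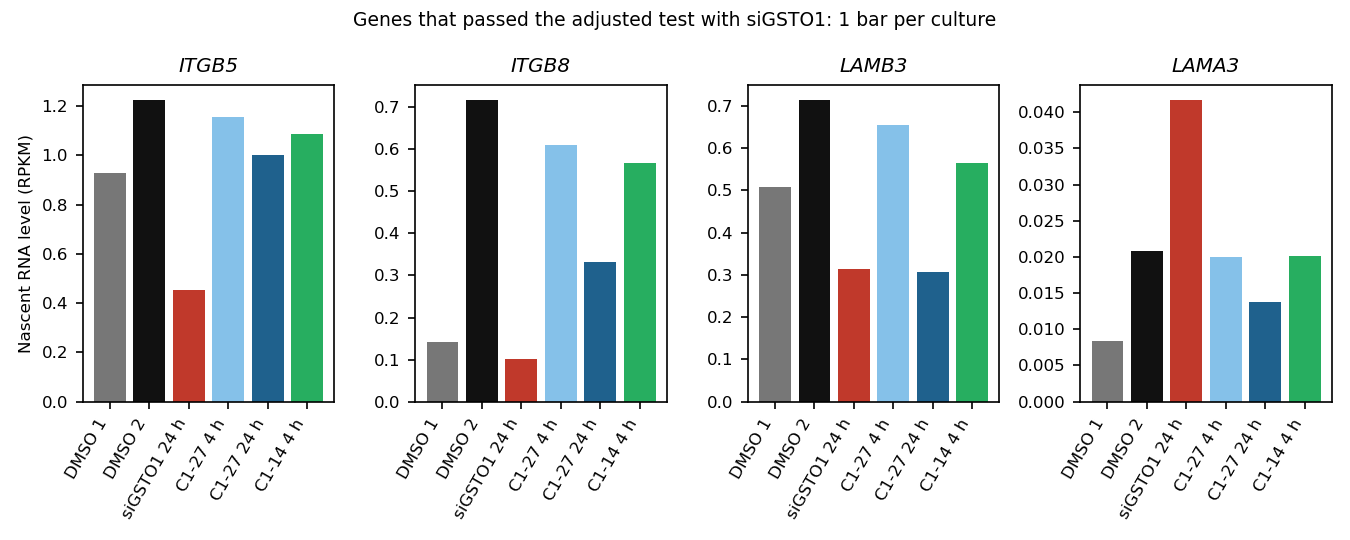
RPKM of ITGB5, ITGB8, LAMB3 and LAMA3 with 1 bar per culture, each panel on its own axis from 0. The siGSTO1 bar is lowest for ITGB5 (0.453) and ITGB8 (0.101) and highest for LAMA3 (0.0417), and for LAMB3 the siGSTO1 (0.314) and 24 h C1-27 (0.307) bars lie below the others.

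A simple fold change gave a partly different set. Among the 9 genes above 300 bp with a mean RPKM above 0.5, 3 passed 1.4-fold with siGSTO1 (33.3%), against 16.9% of all genes with this filter. These were ITGB5 and LAMC1 lower and ITGA5 higher. LAMC1 had 1.31 and 1.56 RPKM in DMSO and 0.933 with siGSTO1, a fold change of 0.652 that did not pass the test (edgeR adjusted p = 0.0769). ITGA5, the chain of the main fibronectin receptor, had 0.508 and 0.440 RPKM in DMSO and 0.684 with siGSTO1 (1.44-fold, edgeR adjusted p = 0.659). It was under 1.4-fold after scaling by TMM factors (1.34) or DESeq2 factors (1.30). The filter uses the treated value, so that ITGA5, with a DMSO mean of 0.474 RPKM, entered through its siGSTO1 level, and LAMB3, with a DMSO mean of 0.611, dropped out through its own. The count of 3 is therefore partly set by the changes themselves, and nothing is read from it.

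Against each DMSO culture alone, 7 of 24 genes passed 1.4-fold with siGSTO1 (29.2%), against 19.4% of all genes. ITGB5, ITGB8 and LAMB3 were lower, and ITGA1, ITGAM, LAMA3 and LAMB2 were higher. ITGA1, a collagen receptor chain, had 0.0710 and 0.0694 RPKM in DMSO and 0.141 with siGSTO1 (2.01-fold, edgeR adjusted p = 0.136). The DMSO pair was close at this gene, and the siGSTO1 value was the highest of the 6.

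LAMB2, the beta chain of laminins in muscle, nerve and kidney, had 0.170 and 0.136 RPKM in DMSO and 0.310 with siGSTO1. It had 0.114 and 0.256 RPKM with C1-27 at 4 h and 24 h, and 0.239 with C1-14. The fold change with siGSTO1 was 2.02 on 98 counts (edgeR adjusted p = 0.429). ITGAM, a leukocyte chain, had 0.0164 and 0.0112 RPKM in DMSO and 0.0319 with siGSTO1 (61 counts, 2.31-fold, edgeR adjusted p = 0.312). None of the 3 leukocyte markers was above 0 counts in the siGSTO1 library.

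By ligand group, the siGSTO1 values of the laminin receptor chains were 1.33-fold for ITGA3, 0.882-fold for ITGA6 and 1.65-fold for ITGA7. Those of the collagen receptor chains were 2.01-fold for ITGA1, 0.959-fold for ITGA2 and 0.751-fold for ITGA10. ITGAV, the partner of ITGB5 and ITGB8, had 0.764 RPKM, within its DMSO range of 0.674 to 0.810 (1.03-fold). ITGB1 had 0.842 and ITGB4 0.839 of the DMSO mean. None of these 9 genes passed the test.

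Of the other laminin chains, LAMA5 had 0.514 and 0.469 RPKM in DMSO, 0.357 with siGSTO1, 0.422 and 0.371 with C1-27 at 4 h and 24 h, and 0.509 with C1-14. Its 2 lowest values were those of the 24 h cultures, at 0.727 and 0.755 of the DMSO mean, and neither passed the test (edgeR adjusted p = 0.364 and 1.00). LAMA4, an alpha chain of vessels and muscle, had 0.0195 and 0.0473 RPKM in DMSO, and 0.0258 to 0.0474 in the treated cultures. LAMC3, a minor gamma chain, had 0.0604 to 0.0808 RPKM over all 6 cultures.

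The remaining alpha chains were weakly transcribed. ITGA9, a receptor of tenascin and other matrix proteins, had 0.0123 and 0.0148 RPKM in DMSO and 0.0139 to 0.0201 in the treated cultures. ITGA10 had 0.0725 and 0.0297 RPKM in DMSO, and all 4 treated cultures lay between these values, from 0.0336 to 0.0450 RPKM. ITGA4, ITGA8 and ITGA11 had 0 to 11, 0 to 6 and 0 to 5 counts per library, and LAMA1, the first laminin alpha chain of the embryo, had 0 to 12.

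The next comparison followed C1-27 over time. At 4 h no gene of the families passed the adjusted test in either direction, and none had an unadjusted p under 0.05. Of all genes, 0.0208% were higher and 0% lower at the adjusted threshold by edgeR, and 0.804% differed at an unadjusted p under 0.05. DESeq2 also called none of them. The median log2 fold change was −0.08, against −0.02 over all genes.

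By fold change, 1 of 9 genes passed 1.4-fold at 4 h, against 2.61% of all genes with the RPKM filter. It was ITGB8, at 1.42-fold over the DMSO mean but 4.32-fold against culture 1 and 0.851-fold against culture 2. With a DMSO mean of 0.430 RPKM, ITGB8 passed the filter only through its level with C1-27 at 4 h, and nothing is read from this count. Against each DMSO culture, 1 of 24 passed, against 1.73% of all genes. It was ITGA7, a laminin receptor chain best known from muscle, with 0.0478 and 0.0221 RPKM in DMSO and 0.0140 with C1-27 (15 counts, edgeR adjusted p = 1.00).

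At 24 h no gene passed the adjusted test either, while 0.194% of all genes were higher and 0.166% lower by edgeR, and DESeq2 called none of the 25. At an unadjusted p under 0.05, ITGA2, LAMB1 and LAMB3 were lower, 3 of 25 (12%) against 4.28% of all genes. LAMB3 was nearest to the threshold, with a fold change of 0.503 (edgeR log2 fold change −1.06, adjusted p = 0.185). ITGA2 had 0.729 RPKM against 0.893 and 1.36 in DMSO, a fold change of 0.646 (edgeR adjusted p = 0.516). LAMB1, a beta chain of widely found laminins, had 0.370 RPKM against 0.655 and 0.443 in DMSO, a fold change of 0.675 (edgeR adjusted p = 0.949). All 3 lay below both DMSO cultures.

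By fold change at 24 h, 1 of 8 genes passed with the RPKM filter (ITGA2 lower), against 6.68% of all genes. LAMB3 (0.503-fold) and LAMB1 (0.675-fold) dropped out of this filter through their own levels with C1-27. Their DMSO means were 0.611 and 0.549 RPKM. Nothing is therefore read from this count. Against each DMSO culture, 2 of 24 passed (LAMB2 higher and LAMB3 lower, 8.33%), against 6.42% of all genes. ITGB8 was 2.35-fold higher than in DMSO culture 1 and at 0.462 of culture 2, so its direction depended on the control. ITGAV was 1.31-fold over the DMSO mean, with 0.968 RPKM, the highest of the 6 cultures.

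Between 24 h and 4 h of C1-27, at the same dose, no gene of the families passed the adjusted test. Of all genes, 0.0416% were higher and 0.0832% lower at 24 h by edgeR. At an unadjusted p under 0.05, ITGB8 and LAMB3 were lower at 24 h, 2 of 25 (8%) against 2.89% of all genes. LAMB3 went from 0.655 to 0.307 RPKM (edgeR log2 fold change −1.17, SE 0.365, adjusted p = 0.343), and ITGB8 from 0.611 to 0.332 RPKM (−0.96, SE 0.312, adjusted p = 0.438). This contrast does not use the DMSO values as a control. DESeq2 called none of the 25 here.

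C1-14, the inactive analogue, was measured at 4 h only and at a dose 10 times that of C1-27, so the compounds are set side by side without a test. With C1-14, no gene passed the adjusted test in either direction, by edgeR or DESeq2, against 0.132% of all genes higher and 0.00693% lower by edgeR. ITGAL had an unadjusted p under 0.05 (6 counts), 1 of 25 (4%) against 1.61% of all genes. With the RPKM filter 0 of 10 passed 1.4-fold, against 4.67% of all genes. Against each DMSO culture 1 of 24 did (LAMB2, 1.56-fold), against 2.76%.

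At 4 h and at these different doses, ITGB5 had 1.16 RPKM with C1-27 and 1.09 with C1-14, ITGB1 had 4.52 and 4.72, ITGA6 had 2.04 and 2.18, and LAMC1 had 1.46 and 1.39. LAMB2 had 0.114 RPKM with C1-27 and 0.239 with C1-14, and ITGA7 had 0.0140 and 0.0426. These last values rest on 53 and 100 counts for LAMB2 and on 15 and 41 for ITGA7.

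The last comparison set siGSTO1 against C1-27 at 24 h, which share the time and use no DMSO value as a control. ITGB5 and ITGB8 were lower with siGSTO1, 2 of 25, against 0.243% of all genes, and 0 of 25 were higher, against 1.19%. ITGB5 had 0.453 and 1.00 RPKM (edgeR log2 fold change −1.21, SE 0.291, adjusted p = 0.00517). ITGB8 had 0.101 and 0.332 RPKM (−1.78, SE 0.347, adjusted p = 0.000164). The 5.08-fold difference between the DMSO cultures at ITGB8 did not widen this error either. DESeq2 called neither (adjusted p = 0.153 for ITGB5 and 1.00 for ITGB8). Each side of this contrast is 1 culture.

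At an unadjusted p under 0.05, 5 of 25 genes differed between siGSTO1 and C1-27 at 24 h (20%), against 8.05% of all genes. Beside ITGB5 and ITGB8, LAMC1 was lower with siGSTO1, and LAMA3 and LAMB1 were higher. LAMA3 had 0.0417 and 0.0138 RPKM (edgeR adjusted p = 0.107), and LAMB1 had 0.730 and 0.370 RPKM (edgeR adjusted p = 0.134). LAMB3 was at nearly the same level in both, with 0.314 and 0.307 RPKM (edgeR log2 fold change −0.03, SE 0.383).

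Integrins act through a complex of adaptors on their inner side, and of 24 such genes 2 were higher and 1 lower with siGSTO1 by edgeR, against 3.69% and 1.21% of all genes. Of the 24, 7 had an unadjusted p under 0.05, against 15.2% of all genes. TLN2, a talin that activates integrins, had 0.0531 and 0.0331 RPKM in DMSO and 0.119 with siGSTO1 (2.76-fold, edgeR adjusted p = 0.00573). TNS1, a tensin that links integrins to actin, had 0.0913 and 0.0652 RPKM in DMSO and 0.173 with siGSTO1 (2.21-fold, edgeR adjusted p = 0.0490). PARVA, a parvin that binds integrin-linked kinase, had 0.635 and 0.658 RPKM in DMSO and 0.388 with siGSTO1 (0.601-fold, edgeR adjusted p = 0.0256). The siGSTO1 value lay outside the DMSO range in all 3. DESeq2 called none of the 24 (adjusted p = 0.108 for TLN2, 0.278 for TNS1 and 0.0800 for PARVA). The median log2 fold change of the 24 was −0.27, against 0.02 over all genes.

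Of 7 hemidesmosome genes and other laminin receptors, none passed the test with siGSTO1 by edgeR, and 0 of 7 had an unadjusted p under 0.05, with a median log2 fold change of −0.37. Of 18 matrix and basement membrane genes 13 were tested, and 1 was higher and 1 lower with siGSTO1 by edgeR, against the same 3.69% and 1.21% of all genes. Of the 13, 7 had an unadjusted p under 0.05, against 15.2% of all genes. COL4A5, a collagen chain of basement membranes, had 0.192 and 0.227 RPKM in DMSO and 0.404 with siGSTO1 (1.92-fold, edgeR adjusted p = 0.0208). TGFB2, a ligand kept latent in the matrix, had 0.144 and 0.297 RPKM in DMSO and 0.108 with siGSTO1 (0.488-fold, edgeR adjusted p = 0.0153). TGFB2 was at 0.747 of DMSO culture 1 and was named after its values were seen. DESeq2 called neither gene (adjusted p = 0.230 for COL4A5 and 0.209 for TGFB2). No gene of these 3 lists passed in the comparisons of C1-27 or C1-14 with DMSO by edgeR or DESeq2. At an unadjusted p under 0.05 4 of 24 adhesion, 1 of 7 hemidesmosome and 2 of 13 matrix genes differed with C1-27 at 24 h, against 4.28% of all genes. At 4 h these counts were 0, 1 and 0, against 0.804%, and with C1-14 they were 1, 0 and 0, against 1.61%.

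Among the markers of other cell types, PECAM1 (25 to 50 counts) and COL1A1 (14.7 to 48.7 counts) were transcribed by the rule used here. The others reported here had few or no counts. Of 4 fibroblast markers, COL1A1 had 0.140 and 0.0609 RPKM in DMSO and 0.313 with siGSTO1 (edgeR adjusted p = 0.0960), while COL1A2, PDGFRB and DCN had 0 to 4 counts in every library. The summed level of this list was 0.0630 to 0.147 RPKM in the other cultures and 0.315 with siGSTO1. The endothelial markers summed to 0.170 to 0.374 RPKM, nearly all of it from PECAM1 (0.168 to 0.374 RPKM), with CDH5 at 0 to 2 counts. The 7 epithelial markers summed to 27.7 and 17.8 RPKM in DMSO, 19.95 with siGSTO1, 16.6 and 14.9 with C1-27 at 4 h and 24 h, and 33.2 with C1-14. KRT8 was lower with C1-27 at 24 h (0.506-fold, edgeR adjusted p = 0.0431, DESeq2 adjusted p = 0.622), as was LAMB3 without passing the test. KRT18 (0.598-fold) and KRT19 (0.610-fold) were also lower there without passing. CDH1 and EPCAM lay between their DMSO values, and CLDN4 was 1.31-fold. With siGSTO1, CDH1 (1.54-fold) and CLDN4 (2.47-fold) were higher, and KRT8 (0.732-fold) and KRT18 (0.605-fold) were lower. KRT19 and EPCAM lay between their DMSO values, and no epithelial marker passed the edgeR test with siGSTO1. The part of these markers in the results was not tested, and in bulk RNA fewer cells of a type and less RNA per cell cannot be told apart.

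The DMSO pair gives a single difference per gene, between vehicle cultures of 4 h. It shows how far these cultures differed and sets no limit for others. Among the 24 transcribed, 9 passed 1.4-fold between DMSO culture 1 and culture 2 (37.5%), against 27.0% of all genes. The directions were unlike. Of the 24, 5 were higher and 4 lower in culture 2, whereas of 13155 genes 653 were higher and 2902 lower. ITGB8, LAMA3 (2.49-fold) and LAMA4 (2.42-fold) were higher in culture 2, as were ITGA2 (1.53-fold) and LAMB3 (1.41-fold). ITGA10 (2.44-fold), LAMB1 (1.48-fold) and ITGAM (1.46-fold) were higher in culture 1, as was ITGA7, which was at 0.462 of that level in culture 2. By contrast, ITGA1, LAMC3, ITGA6, ITGAX and LAMA5 differed by 1.02-fold to 1.10-fold.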

How the data were processed

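Bru-seq libraries of 6 HCT116 cultures were analysed, grouped by their labels. The deposited files give, per gene and strand, expected counts over exons and introns, not normalized and often not whole, a signal that the authors made as that count per base of the gene (not used in tests), and RPKM computed by the authors per gene length and mapped reads. The submitters' processing notes name CASAVA 1.8.2, Bowtie 0.12.8, TopHat 1.4.1, bedtools 2.16.2 and hg19. Bromouridine RNA includes introns, so levels weight long genes by their whole span.

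Sense counts were rounded and fitted in edgeR 4.0.16 (R 4.3.3) with TMM scaling, for 14428 genes above 300 bp with 10 or more counts in 2 or more libraries, in 5 groups and with 1 residual degree of freedom from DMSO. The common dispersion was 0.0381. The quasi-likelihood test was used with Benjamini-Hochberg adjustment, and DESeq2 1.42.0 was the alternative. Both were also run on simulated data in which every gene had that same common dispersion. That run does not show how they behave at a gene with a wider spread of its own, such as ITGB8. P-values measure only the spread between the DMSO cultures, which may be technical. A fold change is the treated RPKM over the mean DMSO RPKM, without a pseudocount. Counts behind each level limit its precision, and intervals (exact, 95%) cover counting error only.

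The family members and all lists were chosen with earlier results of these data known. All 33 genes are accounted for, and those transcribed are described. Other genes were named by an edgeR adjusted p under 0.05 together with 1.4-fold or more against each DMSO culture, except GSTO1, TGFB2, FN1 and the cell type markers. Of the planned leukocyte markers, 1 is not reported here. Gene positions are as in the files (hg19). Promoter windows come from RefSeq on GRCh38.p14 and were matched by symbol. MIR4315, FLJ39739 and PPIAL4 are rows that span several loci, including some of these genes, on the opposite strand, which the counts keep apart. Python 3.11.15, pandas 2.3.3, numpy 2.4.6, scipy 1.17.1 and matplotlib 3.10.9 were used.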

Additional observations from a re-analysis of the deposited data

How the results depend on the processing

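With 1 culture per treatment and 2 of DMSO, the counts past 1.4-fold depended on the control and the filter. With either DMSO culture left out, they ran from 1 to 6 for siGSTO1, 0 to 2 for C1-27 at 4 h, 2 to 3 for C1-27 at 24 h and 0 to 1 for C1-14. With no RPKM filter they were 14, 9, 12 and 13 in the same order, and with 10 or more counts in each library in its place 11, 3, 4 and 4. Adding 0.1 RPKM left 0 for C1-27 at 4 h. The siGSTO1 count fell to 2 under TMM factors, DESeq2 factors and 0.1 RPKM added, with ITGA5 at 1.34, 1.30 and 1.37-fold. Without DMSO replicate 1, the fold of ITGB8 with C1-27 at 4 h turned to 0.851 and that of ITGA10 with C1-14 to 1.13, while without DMSO replicate 2 they were 4.32 and 0.464, since these genes differ between the DMSO cultures.

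In the tests, DESeq2 called 1 gene with siGSTO1 against DMSO (ITGB5) and 0 between siGSTO1 and C1-27 at 24 h, where edgeR called 4 and 2; the cause was not tested. Under the other edgeR settings tried (RLE factors, other count filters, only the treated and DMSO cultures, and an older quasi-likelihood method chosen after seeing the data), the 4 genes called with siGSTO1 stayed called, LAMA3 with an adjusted p of 0.0214 to 0.0482. Without the filter on low counts, LAMA3 was also called higher in siGSTO1 than in C1-27 at 24 h (edgeR adjusted p = 0.0481). Scaling by TMM or DESeq2 factors shifted the siGSTO1 log2 fold of ITGB1 by −0.116 or −0.155. This scaling turned the direction of no gene that was past 1.4-fold. ITGAV, near no change, went from 1.03-fold to 0.951-fold or 0.925-fold with siGSTO1. With a DMSO culture left out, no spread remains, so no test was run. No paired analysis was run, since each treatment had 1 culture and the labels do not match a DMSO culture to any treatment.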

Other observations

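Reads on the strand opposite to the gene were few at most of these loci but not at all. At LAMB1, antisense reads made up 31.9% and 42.9% of the counts of both strands in DMSO, 32.0% with siGSTO1, 48.7% and 52.4% with C1-27 at 4 h and 24 h, and 43.0% with C1-14. The antisense level stayed between 0.307 and 0.407 RPKM, a narrower range than the sense level of LAMB1 (0.370 to 0.730 RPKM). At ITGA11 the sense strand had 0 to 5 counts and the opposite strand 33.9 to 86.2, and at ITGB7 the opposite strand had 27.3 to 83.0 counts against 4 to 15.

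FN1, the gene of fibronectin and a ligand of ITGA5, was chosen after its values were seen. It had 0.0181 and 0.0791 RPKM in the DMSO cultures, 0.0488 with siGSTO1, 0.0735 and 0.0198 with C1-27 at 4 h and 24 h, and 0.0515 with C1-14, and it did not pass the test in any comparison with DMSO (edgeR adjusted p = 0.901 with siGSTO1 and 0.502 with C1-27 at 24 h). The DMSO cultures thus held both its lowest and its highest level of the 6 libraries.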
